A study of Mus musculus with 2 samples.

Results

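The 10 genes described here act in amino acid and one-carbon metabolism: Tdh, Gldc, Bhmt, Bhmt2, Shmt1, Shmt2, Mthfd2, Mthfd1l, Ass1 and Tdo2. They are 10 of the 30970 gene entries measured in single cells of mouse yolk sac at stage E8.75, and all 10 were found. The genes were chosen by measured values, namely their levels in 4 cell classes of these data, so differences between those classes are given as a description with no test. Outer endoderm, mesoderm, vessels and primitive red blood cells make up this extraembryonic tissue. All animals had the genotype Ttr-Cre/+; R26lsl-rtTA-EGFP/+. In this genotype the Ttr promoter, which is active in visceral endoderm, drives Cre, and Cre opens an rtTA-EGFP allele at the R26 locus. There was no treated group and no animal without these alleles. The labels Ctrl1, Ctrl2 and Ctrl3 mark 3 sets of cells tagged with CellPlex oligonucleotides before pooling on a 10x chip, called tagged samples 1, 2 and 3 here.

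One-carbon metabolism moves single carbon units, carried on folate, from donors such as serine and glycine to the making of purines, thymidylate and methionine. The mitochondrial and cytosolic branches use separate enzymes, so isozymes such as Shmt1 and Shmt2 do the same reaction in different compartments. Yolk sac endoderm takes up maternal protein and nutrients for the embryo before the placenta works, and it expresses many genes that are later typical of liver.

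The 3 tagged samples held 460, 651 and 706 deposited cells with 22007477, 32890946 and 33114758 unique molecular identifiers (UMIs). Cells were kept from 500 genes upward and with mitochondrial UMIs of 10% or less. They were put in a class by the UMI share of a few genes: endoderm by Ttr, Apob and Apom, erythroid by 7 globin genes, endothelium by Cdh5, Ctla2a and Plvap, and mesoderm by Hand1, Vcan and Foxf1. This gave 559 endoderm, 199 mesoderm, 115 endothelium and 629 erythroid cells, with median depths of 56338, 34959, 35699 and 47771 UMIs per cell. Between 8 and 22 cells of each class but endothelium, and 6 of endothelium, lay less than 10% above the class threshold. Markers not used for the classes were highest in their own class for 9 of 9 endoderm, 6 of 6 endothelium, 5 of 5 erythroid and 5 of 6 mesoderm genes. Pdgfra was the exception, at a mean of 22.3 UMIs in each 1000000 (CPM) in endoderm and 16.9 in mesoderm. No cell barcode occurred in more than 1 tagged sample. The design text describes 1 yolk sac for each tag, but each tagged sample held cells with Xist and cells with Y-linked UMIs (55.7%, 57.6% and 37.7% Xist cells among those called), so the number of embryos behind a tag was unclear. A p-value below therefore sets a difference against the spread between these 3 tagged samples. Where the tagged sample was fitted as a block, it sets the difference against the spread of the paired differences within them.

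RefSeq promoter sequences (GRCm38.p6) were at hand for 9 of the 10 genes. Those shown are of Bhmt and Bhmt2, neighbouring paralogs with very different UMI counts, and of Mthfd2 and Tdo2, the genes whose highest level lay outside endoderm by the widest margins. Each line gives the 250 bases before the RefSeq start, 5′ to 3′ on the gene's strand, with matches in capitals on either strand to the TATA box (searched as TATAAA), the CCAAT box (searched as CCAAT) and the GC box (searched as GGGCGG).
Bhmt, chr13:93637759-93638008, minus strand: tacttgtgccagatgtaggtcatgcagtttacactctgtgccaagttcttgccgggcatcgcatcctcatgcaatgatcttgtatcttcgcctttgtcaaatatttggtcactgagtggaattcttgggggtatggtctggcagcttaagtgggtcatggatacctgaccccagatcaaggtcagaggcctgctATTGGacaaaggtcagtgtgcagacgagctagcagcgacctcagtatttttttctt
Bhmt2, chr13:93674303-93674552, minus strand: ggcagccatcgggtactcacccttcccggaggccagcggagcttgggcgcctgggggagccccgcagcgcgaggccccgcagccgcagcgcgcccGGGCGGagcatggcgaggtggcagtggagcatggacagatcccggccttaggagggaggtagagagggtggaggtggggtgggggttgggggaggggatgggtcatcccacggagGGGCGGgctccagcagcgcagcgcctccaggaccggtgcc
Mthfd2, chr6:83317605-83317854, minus strand: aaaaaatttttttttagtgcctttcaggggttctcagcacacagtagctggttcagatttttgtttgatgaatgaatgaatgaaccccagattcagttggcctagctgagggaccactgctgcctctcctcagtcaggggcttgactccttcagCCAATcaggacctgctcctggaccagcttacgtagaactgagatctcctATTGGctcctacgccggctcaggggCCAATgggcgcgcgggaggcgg
Tdo2, chr3:81975729-81975978, minus strand: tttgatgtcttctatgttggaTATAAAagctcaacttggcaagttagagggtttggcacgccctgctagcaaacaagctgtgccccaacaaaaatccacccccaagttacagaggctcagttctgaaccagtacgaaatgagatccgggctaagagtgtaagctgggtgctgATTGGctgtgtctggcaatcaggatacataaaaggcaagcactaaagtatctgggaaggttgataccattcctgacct

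CCAAT matched 3 times before Mthfd2, once before Bhmt and once before Tdo2, and the GC box matched 2 times before Bhmt2. The TATA box letters matched once before Tdo2, near the end of the window farthest from the start. Of 32851 RefSeq promoters of the same length, 33.8% held the CCAAT box, 32.7% the GC box and 12.4% the TATA box. The Bhmt2 window held 20 CpG dinucleotides and the Bhmt window 5, against a median of 6 over all promoters. Such matches describe the letters only, and no factor binding was measured.

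Tdh and Gldc, which break down threonine and glycine, were far higher in endoderm than in the 3 other classes. Tdh (ENSMUSG00000021953, chr14:63492347-63509092, minus strand) encodes threonine dehydrogenase. Its level in endoderm was 460, 465 and 416 CPM (UMIs of the gene in each 1000000 UMIs of the class) in tagged samples 1, 2 and 3. In mesoderm it was 6.82, 10.5 and 11.4, in endothelium 10.1, 19.1 and 8.00, and in erythroid cells 8.11, 6.25 and 8.82. Endoderm stood apart from every other sum, at 447 ± 26.9 (SD, n = 3) against 7.73 ± 1.32 in erythroid cells, and the 3 other classes overlapped each other. Gldc (ENSMUSG00000024827, chr19:30098447-30175429, minus strand) encodes glycine decarboxylase, the first subunit of the mitochondrial glycine cleavage system. Its endoderm levels were 233, 178 and 182 CPM, against 12.7, 9.73 and 11.02 in mesoderm, 14.2, 8.82 and 5.60 in endothelium and 7.41, 8.03 and 8.46 in erythroid cells. For Gldc the endoderm mean was 17.7-fold the mesoderm mean and 24.8-fold the erythroid mean.

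RNA set free from broken cells enters every droplet, so the low values were read beside 8 other endoderm genes not used for the class (Afp, Apoa1, Apoa2, Apoa4, Rbp4, Spp2, Amn and Cubn). The median level of these genes was 2.17% of endoderm in mesoderm, 2.20% in endothelium and 1.81% in erythroid cells. Tdh had medians of 2.26%, 2.19% and 1.76% in the same classes, close to the panel medians. In endothelium of tagged sample 2 Tdh stood at 4.11%, above the highest panel gene there (2.93%). Gldc had 5.45%, 4.95% and 4.50%, above the panel median in each class. Its mesoderm mean went from 11.2 to 6.45 CPM once 19 cells with trophoblast UMIs were left out. Those cells themselves had 37.9, 28.4 and 77.9 CPM of Gldc. Bhmt2 stood at 3.38%, 2.61% and 1.08% and Ass1 at 4.56%, 2.72% and 2.86%, on few UMIs for Bhmt2. Shmt1, Shmt2, Mthfd2 and Mthfd1l lay far above the panel in all 3 classes.

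**Figure D1:**
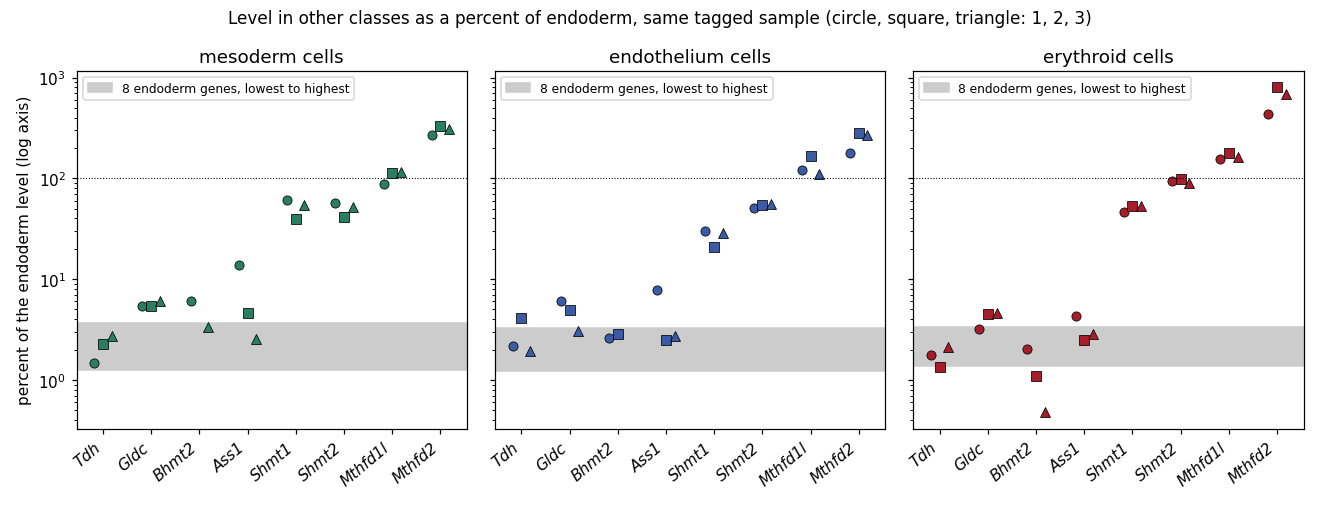
Level in mesoderm, endothelium and erythroid cells as a percent of the endoderm level of the same tagged sample (log axis) for 8 of the genes; the grey band spans 8 endoderm genes, and values of 0 are not drawn. Tdh lies in or next to the band in each class, while Mthfd2 lies above 100% in all 9 sums, with a median of 308% in mesoderm and 692% in erythroid cells.

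Among cells thinned to 20000 UMIs each, Tdh was seen in 99.8% of 511 endoderm cells (95% exact binomial interval 98.9 to 99.995). It was seen in 14.8% of 616 erythroid cells (12.1 to 17.8). Its level there had a median of 1.76% of endoderm, beside 1.81% for the panel, and the part of free RNA in this share was not tested. Without thinning the shares were 97.9% and 30.4%. Intervals here and below cover counting error only. For Gldc the thinned shares were 95.7% in endoderm and 14.4% in erythroid cells. The 10% of thinned endoderm cells richest in Tdh held 19.3% of its UMIs, and for Gldc the figure was 22.7%, so neither gene rested on a few cells.

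Bhmt and Bhmt2 are methyltransferases that make methionine from homocysteine, Bhmt with betaine and Bhmt2 with S-methylmethionine as methyl donor. They lie 17758 bases apart on chromosome 13 with no protein-coding gene between them (Bhmt, ENSMUSG00000074768, chr13:93616675-93637961; Bhmt2, ENSMUSG00000042118, chr13:93655720-93674302; both minus strand). Bhmt2 was at 22.7, 25.9 and 25.1 CPM in endoderm and at no more than 1.36 in any other sum. Its 806 endoderm UMIs compare with 5 in mesoderm, 2 in endothelium and 7 in erythroid cells. Bhmt had 3 UMIs among the 32540566 of endoderm, which is 0.0922 CPM (95% exact Poisson interval 0.0190 to 0.269). It had 0 in mesoderm, 1 in endothelium and 3 in erythroid cells, so no class gave a level that could be told from background at this depth. In mesoderm a count of 0 allows a level of up to 0.518 CPM by the 95% exact Poisson interval. Of the 50-base words in the Bhmt transcripts of GENCODE M21, 10 of 5755 also occur in Bhmt2, so few reads could be shared. Of both genes' endoderm UMIs, 99.6% were Bhmt2 (98.9 to 99.9), without correction for transcript length.

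Bhmt2 UMIs were seen in 65.5% of endoderm cells, and in 36.2% of 511 after thinning (32.0 to 40.5). The richest 10% of the thinned cells held 47.2% of its UMIs. Without thinning the median was 1 UMI per cell.

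The serine hydroxymethyltransferases, which pass a carbon from serine to folate and yield glycine, were present in all 4 classes. Shmt1 (ENSMUSG00000020534, chr11:60788104-60811718, minus strand) is the cytosolic isozyme. It was at 76.0, 70.7 and 61.1 CPM in endoderm, 46.4, 28.0 and 33.5 in mesoderm, 22.6, 14.7 and 17.6 in endothelium, and 35.0, 37.7 and 32.8 in erythroid cells. The order was endoderm, then mesoderm and erythroid cells, which overlapped, then endothelium. Shmt2 (ENSMUSG00000025403, chr10:127517123-127522444, minus strand) is the mitochondrial isozyme. It was at 65.0, 65.4 and 62.6 CPM in endoderm and 61.4, 64.8 and 56.4 in erythroid cells, against 37.3, 26.8 and 32.6 in mesoderm and 33.2, 35.3 and 35.2 in endothelium. Endoderm and erythroid cells overlapped for Shmt2, as did mesoderm and endothelium, and the first pair lay above the second in every sum. The direction between endoderm and erythroid cells depended on scaling, at -0.13 on the log2 scale with trimmed means and 0.09 with library sizes.

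The balance of the isozymes differed by class. Shmt2 made up 48.3% ± 2.26 (SD, n = 3) of the UMIs of both genes in endoderm and 47.6% ± 2.65 in mesoderm. It made up 65.6% ± 5.58 in endothelium and 63.4% ± 0.272 in erythroid cells. The shares in endoderm and mesoderm, at most 50.6% in any tagged sample, did not overlap those in endothelium and erythroid cells, at least 59.6%. These shares are not corrected for transcript length, so only their change between classes can be read. Shmt1 overlaps Smcr8 and Shmt2 overlaps Ndufa4l2, each on the opposite strand, and no source used here says whether counting used strand. Smcr8 was at 8.70 and Ndufa4l2 at 0.659 CPM in endoderm.

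Mthfd2 and Mthfd1l are the mitochondrial folate enzymes that oxidise methylene-folate and release formate. Both were highest in erythroid cells, and Mthfd2 was lowest in endoderm. Mthfd2 (ENSMUSG00000005667, chr6:83305691-83325908, minus strand) was at 93.8, 125 and 120 CPM in erythroid cells. It was at 58.7, 51.0 and 53.4 in mesoderm, 38.6, 44.1 and 46.4 in endothelium and 21.7, 15.6 and 17.3 in endoderm. No 2 classes overlapped for Mthfd2, and the erythroid mean was 6.204-fold the endoderm mean, from 4.32-fold to 8.03-fold over the tagged samples. Mthfd1l (ENSMUSG00000040675, chr10:3973118-4167081, plus strand) varied less, at 36.4, 27.8 and 29.7 CPM in erythroid cells and 27.9, 25.7 and 19.9996 in endothelium. It was at 20.5, 17.5 and 21.2 in mesoderm and 23.3, 15.6 and 18.2 in endoderm. Only erythroid cells stood apart from endoderm and mesoderm for Mthfd1l, and endoderm could not be separated from mesoderm or endothelium. Its difference between endoderm and mesoderm was 0.18 on the log2 scale with trimmed means and -0.06 with library sizes. Mthfd2 UMIs were seen in 82.6% of 616 thinned erythroid cells (79.4 to 85.5) and in 26.0% of 511 thinned endoderm cells (22.3 to 30.1).

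Ass1 (ENSMUSG00000076441, chr2:31470207-31520672, plus strand) encodes argininosuccinate synthase, which joins citrulline and aspartate on the way to arginine. It was at 152, 264 and 265 CPM in endoderm. Mesoderm had 20.9, 12.1 and 6.78, endothelium 11.9, 6.62 and 7.20, and erythroid cells 6.49, 6.63 and 7.57. Endoderm was above all other sums, but tagged sample 1 was low within it. Of the 8 endoderm genes used above, Afp was low there too, at 1117 CPM in tagged sample 1 and at 2554 and 2553 in the others. Spp2 was at 206, 428 and 374. Cubn went the other way, at 833, 708 and 672, and Amn differed little, at 634, 652 and 663. Whether these differences go together was not tested. In mesoderm Ass1 fell to a mean of 5.70 once the 19 cells with trophoblast UMIs were left out, and those cells themselves had 71.0, 63.1 and 50.1 CPM.

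Tdo2 (ENSMUSG00000028011, chr3:81957090-81976202, minus strand) encodes tryptophan 2,3-dioxygenase, which opens the ring of tryptophan and starts the kynurenine pathway. It was the gene of mesoderm, at 281, 282 and 446 CPM. Endoderm had 2.01, 3.47 and 1.09, endothelium 2.37, 4.41 and 7.20, and erythroid cells 0.927, 1.87 and 1.79. The lowest mesoderm sum was above every other sum of Tdo2, and the mesoderm mean was 154-fold the endoderm mean and 72.1-fold the endothelium mean. Tdo2 UMIs were found in 80.4% of 199 mesoderm cells and in 7.16% of 559 endoderm cells. After thinning the shares were 75.3% of 174 mesoderm cells (68.2 to 81.5) and 3.91% of 511 endoderm cells (2.41 to 5.98). In the 19 mesoderm cells with 5 or more UMIs of the trophoblast list (Tpbpa, Plac1, Rhox6, Rhox9 and Ascl2), Tdo2 was at 4.74, 120 and 5.56 CPM. Without those cells it was 346, 305 and 482. Tdo2 was thus higher in the mesoderm cells without trophoblast UMIs in each tagged sample, by the least in tagged sample 2.

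**Figure D2:**
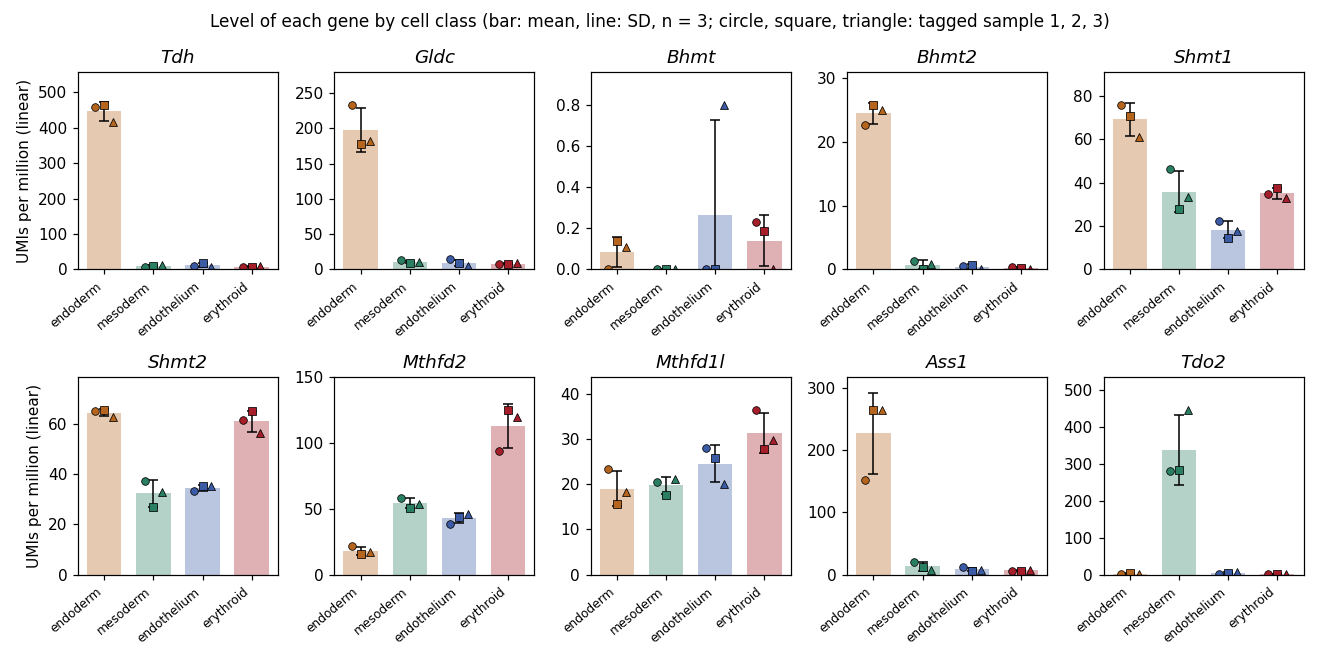
Level of each of the 10 genes in 4 cell classes, in CPM on a linear axis that differs by panel; bars are means, lines SD over 3 tagged samples, and points the tagged samples. Tdh, Gldc, Bhmt2 and Ass1 are high in endoderm, Mthfd2 in erythroid cells at 93.8 to 125, Tdo2 in mesoderm at 281 to 446, and Bhmt stays below 1 in all 12 sums.

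Cells that passed the filters but fell in none of the 4 classes (188 cells) gave further values. Mthfd2 was at 82.2, 86.3 and 88.6 CPM in them, between mesoderm and erythroid cells. Ass1 was at 36.3, 23.3 and 19.7 and Gldc at 31.8, 15.8 and 8.50, while the summed trophoblast list was at 318, 306 and 119. The part of those cells in the levels of Ass1 and Gldc was not tested.

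The genes whose levels over the 12 sums (4 classes by 3 tagged samples) were most like each member were found by Pearson's r of log2(CPM + 1). The sums share cells' class and library, so r is a description. For Tdh they were Apoa1 (r = 0.994) and Misp3 (0.994), and for Gldc Gucd1 (0.991) and Rbm47 (0.990). For Bhmt2 they were Lap3 (0.991) and Tmem82 (0.983), and for Ass1 Tnfrsf12a (0.991) and Cldn7 (0.987). Tdo2 was nearest to Nnat (0.993) and Svep1 (0.992), 2 genes at 426 and 55.1 CPM in mesoderm. Mthfd2 was nearest to Ninl (0.987) and Tma16 (0.976), and Mthfd1l to Ddx10 (0.946) and Noa1 (0.929). Shmt2 was nearest to Mrpl20 (0.973) and Cox7a2 (0.972), and Shmt1 to Pecr (0.956) and Grwd1 (0.953). Bhmt, with 7 UMIs in the 4 classes, was given no such gene.

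Differences inside a class had not been used to choose the genes, so they were tested. Cells of each tagged sample were divided into terciles by a gene share, counts were summed, and the upper was compared with the lower tercile (edgeR quasi-likelihood test, 3 sums against 3, Benjamini-Hochberg adjustment over all genes). Upper and lower sums come from the same tagged samples, and values with the tagged sample as a replicate block are given beside those without it. Bhmt and Tdo2 were too low to be tested in endoderm, and Bhmt, Bhmt2 and Tdo2 in erythroid cells.

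Endoderm cells were first divided by Spp2 and Apoa4, secreted proteins of maturing endoderm. None of the 8 tested members passed the threshold in edgeR without the block, where 1.54% of 9257 genes did. At an unadjusted p under 0.05 there were 4 members, beside 1511 of the 9257 genes. DESeq2 called 0 members, beside 113 genes higher and 75 lower. With the replicate block 2 rose and 2 fell, against 11.4% of all genes. Ass1 was at 184, 315 and 345 CPM in the upper tercile and 101, 202 and 194 in the lower, higher in 3 of 3 tagged samples. The log2 difference for Ass1 was 0.80 (SE 0.25, edgeR adjusted p = 0.126), and 0.81 (SE 0.07, adjusted p = 4.84e-08) with the block. Without tagged sample 1, Ass1 was called without the block too (0.79, edgeR adjusted p = 0.000348). It was not called without tagged sample 2 (0.89, edgeR adjusted p = 0.490) or without tagged sample 3 (0.75, edgeR adjusted p = 0.430). Tdh was at 510, 488 and 423 against 384, 413 and 387, a log2 difference of 0.31 (SE 0.08, adjusted p = 0.0825, and 0.00117 with the block). With 92 endoderm cells of at least 0.25% globin left out the difference of Tdh was 0.19 (edgeR adjusted p = 0.450), and without Scrublet doublets 0.21 (edgeR adjusted p = 0.332). Both genes were higher in every upper tercile, and with all 3 tagged samples and all cells they cleared the threshold when these were paired. Ttr was higher there as well, at 10829, 12343 and 10706 CPM against 5332, 8319 and 9211 in the lower tercile. The upper tercile was also deeper, with medians of 56196, 63591 and 56323 UMIs per cell against 44256.5, 52951.5 and 51056. The part of either in Ass1 and Tdh was not tested.

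Mthfd2 and Mthfd1l went the other way in this comparison. Mthfd2 was at 12.9, 10.1 and 16.8 CPM in the Spp2 and Apoa4 upper tercile and 31.9, 24.4 and 16.9 in the lower (log2 difference -0.85, SE 0.24, edgeR adjusted p = 0.103, and 0.00722 with the block). Tagged sample 3 showed almost no difference for Mthfd2. Mthfd1l was at 15.4, 13.1 and 16.5 against 28.8, 18.8 and 20.7 (log2 difference -0.55, SE 0.19, edgeR adjusted p = 0.174, and 0.0357 with the block). The lower tercile also held more red cell RNA: the globin share was 0.360%, 0.424% and 0.237% in it and 0.166%, 0.1405% and 0.188% in the upper. The 5 erythroid markers summed to between 28.4 and 50.9 CPM in the lower and 16.0 to 20.5 in the upper tercile. The 6 mesoderm markers summed to 35.1 to 56.1 in the lower and 20.6 to 23.6 in the upper tercile, and the part of either list in these differences was not tested beyond the values that follow. With the globin-bearing cells left out, the difference of Mthfd2 was -0.52 (SE 0.24, adjusted p = 0.405). Gldc, Bhmt2, Shmt1 and Shmt2 gave log2 differences between -0.01 and 0.20 in this comparison, none past the threshold with or without the block.

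Endoderm cells were next divided by the share of 32 S phase genes, which are high while DNA is copied. Mthfd2 rose, the only member called without the block, where 1.53% of 9283 genes were. Its levels were 31.2, 20.4 and 23.6 CPM in the upper tercile and 13.5, 10.8 and 13.6 in the lower, with no overlap. The log2 difference was 0.95 (SE 0.19, edgeR adjusted p = 0.030), and with the replicate block 0.94 (SE 0.15, adjusted p = 4.91e-05). With any 1 tagged sample left out it stayed between 0.83 and 1.04, at adjusted p between 0.0512 and 0.294. The globin share was 0.381%, 0.338% and 0.344% in the upper tercile and 0.254%, 0.136% and 0.141% in the lower, and the erythroid markers summed to 41.2 to 53.6 and 13.6 to 26.4 CPM. With the 92 globin-bearing cells left out, the difference of Mthfd2 was 0.54 (SE 0.22, adjusted p = 0.362), and without Scrublet doublets 0.72 (SE 0.23, adjusted p = 0.223).

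Under the block, which called 12.9% of all genes in the S phase comparison of endoderm, Ass1 and Tdh fell as well. Ass1 was at 138, 250 and 232 CPM in the upper tercile and 165, 284 and 310 in the lower (log2 difference -0.33, SE 0.23, edgeR adjusted p = 0.573, and 0.00016 with the block). Without the block, Ass1 was called when tagged sample 1 was left out (edgeR adjusted p = 0.0483). It was not called with another tagged sample left out, at edgeR adjusted p up to 0.909. Tdh was at 436, 437 and 380 against 491, 516 and 394 (log2 difference -0.20, SE 0.11, edgeR adjusted p = 0.427, and 0.00364 with the block). Both were lower in 3 of 3 tagged samples. The 9 endoderm markers were lower too, summing to 16441, 22879 and 20177 CPM in the upper and 21680, 28839 and 25775 in the lower tercile, and the part of this in Ass1 and Tdh was not tested. The upper tercile was the shallower one, with medians of 49685, 57360.5 and 48391 UMIs per cell against 57374, 71797 and 60768. Gldc, Bhmt2, Shmt1, Shmt2 and Mthfd1l were not called in either fit.

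**Figure D3:**
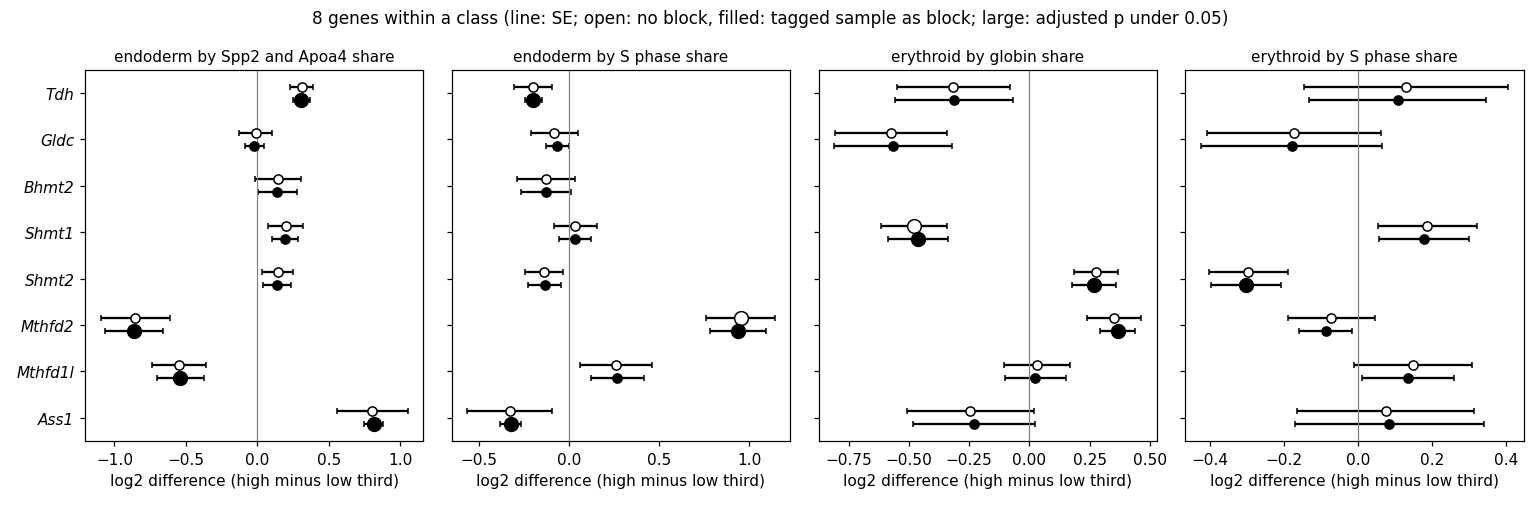
Log2 difference between the upper (high) and lower (low) tercile in 4 comparisons inside endoderm or erythroid cells, for the genes tested in each; lines are SE, open points the fit without and filled points with the tagged sample as block, and large points adjusted p under 0.05. In endoderm, Mthfd2 stands at 0.95 by S phase share and at -0.85 by Spp2 and Apoa4 share.

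Erythroid cells were divided by globin share, which grows as primitive red cells mature. Shmt1 fell with globin, at 25.2, 25.2 and 29.1 CPM in the upper tercile and 42.4, 50.3 and 37.5 in the lower, with no overlap. It was the only one of 7 tested members called without the block, where 5.88% of 8414 genes were (log2 difference -0.48, SE 0.14, edgeR adjusted p = 0.0490, and 0.00564 with the block). Leaving out a tagged sample ended the call in each case, at adjusted p between 0.0657 and 0.537, as did DESeq2 at 0.161. The size of the difference held in DESeq2 (-0.50) and ran from -0.72 to -0.31 with a tagged sample left out. The lower tercile held more endoderm RNA, with 9 endoderm markers summing to 444 to 532 CPM against 331 to 353, and the part of this in Shmt1 was not tested.

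With the replicate block, which called 13.0% of all genes, the mitochondrial enzymes Mthfd2 and Shmt2 rose with globin. Mthfd2 was at 99.0, 128 and 132 CPM in the upper tercile and 89.8, 112 and 118 in the lower (log2 difference 0.35, SE 0.11, edgeR adjusted p = 0.0818, and 9.13e-05 with the block). Without tagged sample 1, Mthfd2 was called without the block (0.39, edgeR adjusted p = 0.00201). It was not called with another tagged sample left out, at edgeR adjusted p up to 0.469. Shmt2 was at 68.1, 64.5 and 59.3 against 59.8, 60.0 and 58.6 (log2 difference 0.28, SE 0.09, edgeR adjusted p = 0.0884, and 0.0356 with the block). Both were higher in 3 of 3 tagged samples, by little for Shmt2 in tagged sample 3. Globins take a large share of the upper tercile, and library size scaling moved the median of all genes in this comparison by -0.19 on the log2 scale. Under that scaling the difference of Mthfd2 was 0.16 (edgeR adjusted p = 0.321) and that of Shmt2 0.09 (edgeR adjusted p = 0.566), so the rise of both is relative to the trimmed mean of all genes. Mthfd1l, near 0 with trimmed means (0.03), was -0.16 with library sizes.

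When erythroid cells were divided by S phase share, edgeR called none of the 7 members without the block, where 2.18% of 8304 genes were called. At an unadjusted p under 0.05 there was 1 member, beside 1244 of the 8304 genes. DESeq2 called 0 members, beside 53 genes higher and 57 lower. Mthfd2 was at 99.998, 135 and 116 CPM in the upper tercile and 93.2, 125 and 128 in the lower, a log2 difference of -0.07 (SE 0.12). With library size scaling the value for Mthfd2 was 0.00. Shmt2 was at 57.1, 62.9 and 49.4 against 65.0, 67.8 and 62.6 (log2 difference -0.30, SE 0.11, edgeR adjusted p = 0.183). It was lower in 3 of 3 tagged samples and was called with the block (adjusted p = 0.0227, beside 8.80% of all genes). The upper tercile held less globin, at 5.43%, 7.81% and 7.33% against 7.24%, 10.4% and 9.50%. Its cells were also shallower, with medians of 43897, 44259 and 42984.5 UMIs against 55001, 53813 and 56536.5, and the part of either in Shmt2 was not tested.

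The S phase difference of Mthfd2 was set against itself in both classes by an interaction term over the 12 sums. Endoderm exceeded erythroid cells by 1.01 on the log2 scale (SE 0.25, edgeR adjusted p = 0.0910, beside 0.355% of 9862 genes called). With the replicate block the difference was 1.02 (SE 0.18, adjusted p = 1.90e-05, beside 3.20% called). Tdh, Gldc, Bhmt2, Shmt1, Shmt2, Mthfd1l and Ass1 were not called in either fit. Bhmt2, with few UMIs in erythroid cells, had wide errors, at 0.48 (SE 1.34) without and 0.50 (SE 1.37) with the block.

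**Figure D4:**
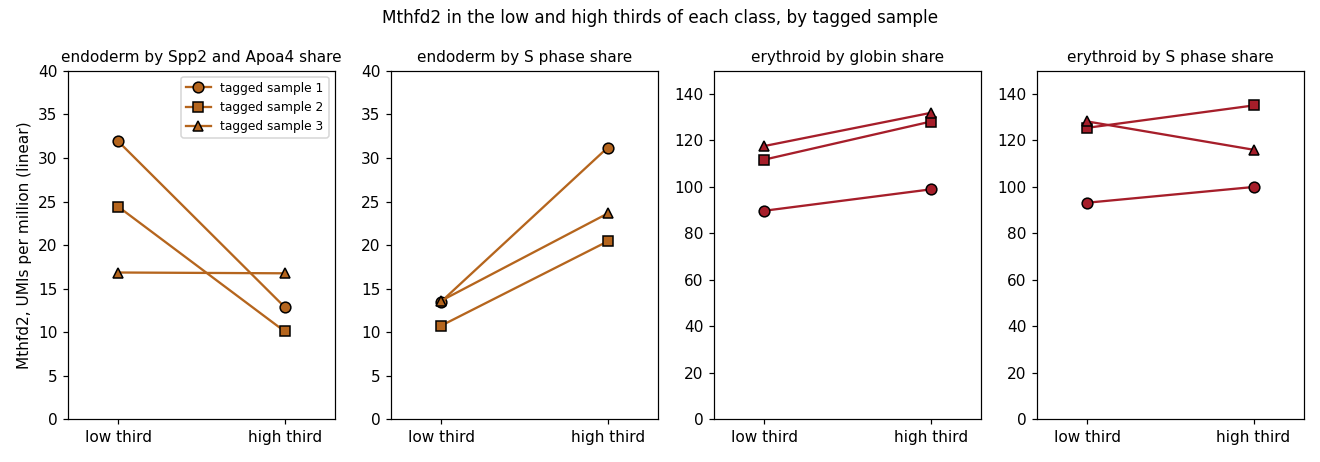
Mthfd2 in CPM (linear axes, which differ between endoderm and erythroid panels) in the lower and upper tercile of 4 comparisons, with a line for each tagged sample. By S phase share the lines rise in all 3 tagged samples of endoderm, from 10.8 to 13.6 up to 20.4 to 31.2, and do not share a direction in erythroid cells.

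The 10 genes were then placed among 112 other genes of their pathways in 7 lists, which hold no member. The same cells and class contrasts had served to choose the members. Against mesoderm 52 of the 87 genes tested were higher and 14 lower in endoderm, beside 33.2% and 30.6% of all 10997 genes. Against endothelium 53 of 85 were higher and 10 lower (32.0% and 28.6% of all genes), and against erythroid cells 50 of 89 were higher and 21 lower (41.8% and 36.1%). Library size scaling in place of trimmed means moved the median log2 difference of all genes by -0.24, -0.13 and 0.21 in these contrasts.

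Around Tdh and Gldc, 10 of 11 tested serine, glycine and threonine genes were higher in endoderm than in mesoderm, 10 of 11 than in endothelium and 11 of 12 than in erythroid cells, and none was lower. The list held 14 genes, tested or not. The median log2 differences of this list were 2.79, 2.82 and 3.10, against 0.02, 0.05 and 0.05 for all genes. Gcat (ENSMUSG00000006378 of 2 entries with that symbol), which acts after Tdh in threonine breakdown, was at 273, 316 and 337 CPM in endoderm and 22.7, 30.7 and 25.0 in mesoderm (log2 difference 3.80, SE 0.14, edgeR adjusted p = 1.82e-09). Psph, the last enzyme of serine synthesis, was at 446, 543 and 500 against 55.8, 59.0 and 64.3 in erythroid cells (log2 difference 2.83, SE 0.10, edgeR adjusted p = 2.47e-10).

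Around Mthfd2 and Mthfd1l the folate list was divided. In endoderm 7 of 17 were higher and 2 lower than in mesoderm, 8 of 17 and 2 against endothelium, and 4 of 18 and 8 against erythroid cells, at medians of 0.10, 0.51 and -0.17. Folr1, a folate receptor, was at 418, 258 and 329 CPM in endoderm and 6.25, 5.42 and 6.61 in erythroid cells (log2 difference 5.54, SE 0.18, edgeR adjusted p = 1.30e-10). Mthfd2l, the paralog of Mthfd2, was lower in endoderm than in mesoderm, at 2.01, 1.94 and 2.40 against 15.9, 15.6 and 16.5 (log2 difference -2.67, SE 0.21, edgeR adjusted p = 7.78e-07). Gart, a purine synthesis enzyme that uses folate, was lower in endoderm than in erythroid cells by a log2 difference of -0.88 (SE 0.07, edgeR adjusted p = 4.33e-07). No 50-base word was shared by Mthfd2 and Mthfd2l.

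Around Ass1, the urea cycle, arginine and proline list had 6 of 12 higher and 4 lower against mesoderm, 6 of 11 and 3 against endothelium and 7 of 12 and 4 against erythroid cells (medians 0.80, 0.40 and 1.22). Asl, which cleaves the product of Ass1, was at 104, 138 and 128 CPM in endoderm and 21.8, 18.7 and 21.2 in mesoderm (log2 difference 2.84, SE 0.16, edgeR adjusted p = 3.96e-08). Its lowest endoderm value was in tagged sample 1, as for Ass1, and also for Gcat and Psph of another list. Oat was highest there, at 263, 240 and 258 CPM in tagged samples 1, 2 and 3. Oat was higher in endoderm against both mesoderm (1.76) and erythroid cells (2.63).

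Around Tdo2, the list for breakdown of tryptophan, tyrosine and histidine lay on the other side from Tdo2 itself. In endoderm 8 of 9 tested genes were higher than in mesoderm, 8 of 9 than in endothelium and 9 of 10 than in erythroid cells, with 0, 0 and 1 lower (medians 4.30, 3.28 and 3.94). The list held 19 genes, and those not tested were too low for the count filter. Tested genes could pass it through endoderm alone, and Qprt had 2741 UMIs in endoderm and 13 in mesoderm. The counts therefore describe only the genes that passed. Qprt, which acts late in the kynurenine pathway, was at 72.5, 89.4 and 87.5 CPM in endoderm, 0.910, 2.33 and 2.12 in mesoderm and 1.39, 1.21 and 1.55 in erythroid cells. Pcbd1 and Qdpr, which recycle tetrahydrobiopterin, were higher in endoderm than in mesoderm by 4.30 and 2.46 on the log2 scale. The single gene lower than in erythroid cells, named after its value was seen, was Acmsd (-5.18).

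Around Bhmt2, the methionine, choline and transsulfuration list had 8 of 13 higher and 2 lower against mesoderm, 8 and 1 against endothelium and 6 and 2 against erythroid cells (medians 0.57, 0.71 and -0.0012). The share higher than in erythroid cells was near that of all genes. Aldh7a1 and Cdo1 led it, at log2 differences of 2.62 and 5.26 against mesoderm. The glutamate, aspartate and alanine list had 6, 5 and 7 of 10 genes higher and 3 lower in each contrast. Glul was higher in endoderm by 2.84 against mesoderm and 2.58 against erythroid cells, Got1 by 1.75 against mesoderm, and Asns was lower (-3.46) against erythroid cells. Of the branched-chain list, 7 of 15 were higher and 3 lower than in mesoderm, where Bcat1 (-4.97) and Bcat2 (-1.38) were lower. Against endothelium 8 of 14 were higher and 1 lower, and against erythroid cells 6 of 14 and 3, where Pccb was higher by 1.55.

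**Figure D5:**
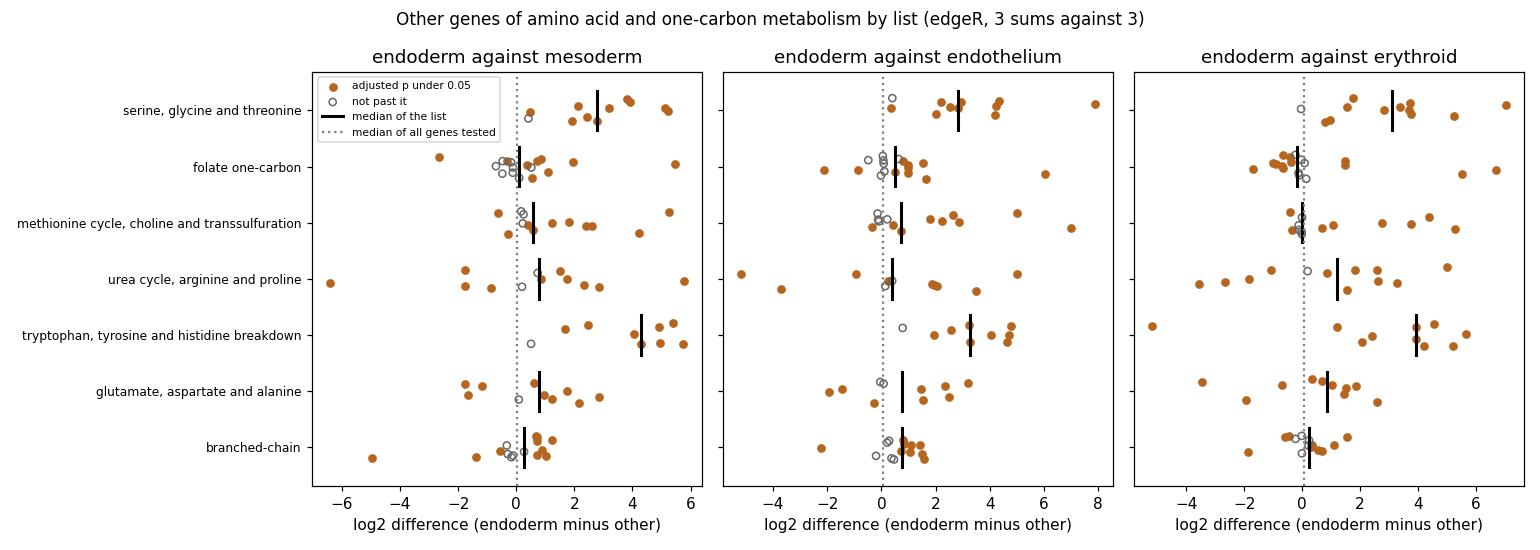
Log2 difference between endoderm and each other class for the tested genes of 7 pathway lists without the 10 members; filled points passed an adjusted p of 0.05 in edgeR, black bars are list medians and the dotted line the median of all genes. The serine, glycine and threonine list and the tryptophan, tyrosine and histidine list lie to the right, with medians of 2.79 and 4.30 against mesoderm.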

How the data were processed

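Yolk sac cells of 3 tagged samples were profiled on a 10x chip. In the deposited files each value is a raw UMI count of a gene in a cell. Per the file headers, Cell Ranger 6.1.2 made them. The build was GRCm38 (mm10), per the submitters' processing notes, and no source used here names the annotation. Counts had not been normalized. A second library of the pool holds the tags and was not analysed as expression.

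Cells were classed by UMI share thresholds of 0.3% (endoderm), 3% (erythroid), 0.04% (endothelium) and 0.03% (mesoderm). Cells meeting 2 or more (50) or none (188), and 77 that failed the filters, were left out. Doublets called by Scrublet (74) stayed in and were left out in an alternative. Cells are not replicates, so sums of counts over each class of a tagged sample were tested. Fits used edgeR 4.0.16 (trimmed mean of M-values, filterByExpr, two-sided quasi-likelihood test, R 4.3.3) on the 2 groups compared, without genes used for classing or dividing cells, and DESeq2 1.42.0 as an alternative. Fits were tested on simulated data.

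Same-numbered sums come from the same tagged sample. Their deviations from the group means correlated by 0.20 to 0.58 in each comparison inside a class and by 0.01 to 0.24 between classes.

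The 10 genes and the pathway lists were chosen with earlier results of these data known. Genes named are the 10, 2 per list with the smallest p against mesoderm and against erythroid cells, and the 2 nearest in pattern among 6586 candidates at 20 or more CPM in the highest class, and 1 gene so named is not reported here. Alternatives were a replicate block, DESeq2, scaling by library size or median ratio, testing without a low-count filter, thinned sums, stricter classes, Scrublet, a division of cells at the median, and each tagged sample left out. Leaving out cells with trophoblast or globin UMIs and the interaction term were added after seeing the data. GENCODE M21 gave positions.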

Additional observations from a re-analysis of the deposited data

Results flagged for a closer look

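The S phase difference of Mthfd2 was larger in endoderm than in erythroid cells by 1.02 on the log2 scale (SE 0.18, edgeR adjusted p = 1.90e-05) in an interaction term with the tagged sample as replicate block. Without the block the difference was 1.01 (SE 0.25, adjusted p = 0.0910), so the call rests on pairing the sums of a tagged sample. Mthfd2 was higher in the S phase upper tercile in 3 of 3 tagged samples of endoderm and in 2 of 3 tagged samples of erythroid cells. Erythroid markers were also higher in the S phase upper tercile of endoderm. Without 92 globin-bearing endoderm cells the difference inside endoderm was 0.54 (edgeR adjusted p = 0.362) in place of 0.95, and without Scrublet doublets 0.72 (edgeR adjusted p = 0.223). The difference between the classes was not computed without those cells.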

How the results depend on the processing

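The number of tagged samples and, for Bhmt, Bhmt2 and Tdo2 outside their highest class, the UMI counts limited precision. In the class contrasts the counts of pathway genes called moved by no more than 1.5 times, except against endothelium, where thinning sums to the smallest left 34 higher. Leaving out each tagged sample gave 48 to 50 higher and 12 to 16 lower against mesoderm, 47 to 48 and 7 to 9 against endothelium, and 46 to 49 and 20 to 23 against erythroid cells.

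Member calls inside classes were less stable. With the replicate block, paired by tagged sample, 2 rose and 2 fell by Spp2 and Apoa4 share, 1 rose and 2 fell by S phase share in endoderm, 2 rose and 1 fell by globin share, and 1 fell by S phase share in erythroid cells. The block called 11.4%, 12.9%, 13.0% and 8.80% of all genes in these comparisons. Without a low-count filter 2 rose and 1 fell by Spp2 and Apoa4 share, beside 394 higher and 294 lower of all 16503 genes. By S phase share in endoderm 1 rose and 1 fell, beside 299 and 218 of 16483. By globin share 1 rose and 1 fell, beside 429 and 297 of 15600. The Mthfd2 call by S phase share went to 0 with cells divided at the median, without Scrublet doublets and without globin-bearing cells. The Shmt1 call by globin share went to 0 with DESeq2 and with cells divided at the median, and became 2 with library sizes, where Gldc was added. With library sizes 84 of all 8414 genes were called higher and 1034 lower. Leaving out a tagged sample gave 0 to 1 higher and 0 lower by Spp2 and Apoa4 share, 0 higher and 0 to 1 lower by S phase share in endoderm, and 0 to 1 higher and 0 lower by globin share. Over all genes it gave 2 to 227 higher and 2 to 124 lower by Spp2 and Apoa4 share. By S phase share in endoderm it gave 10 to 165 and 4 to 114, and by globin share 6 to 526 and 3 to 272. The causes were not tested.

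The differences below changed direction in some alternatives, and none of those inside a class was called there. Tdo2 between endoderm and erythroid cells, low in both and given with no test, was 0.26 on the log2 scale. It was -0.23 without tagged sample 2 and -0.45 without Scrublet doublets. Leaving out a tagged sample gave -0.0864 to 0.0573 for Gldc by Spp2 and Apoa4 share; in endoderm by S phase share -0.145 to 0.0411 for Gldc, -0.297 to 0.0293 for Bhmt2 and -0.0472 to 0.0929 for Shmt1; and -0.0232 to 0.0523 for Mthfd1l by globin share. In erythroid cells by S phase share it gave -0.0749 to 0.524 for Tdh, -0.486 to 0.0940 for Gldc, -0.145 to 0.0316 for Mthfd2 and -0.227 to 0.187 for Ass1. Mthfd1l by globin share was -0.16 with library sizes and -0.049 with thinned sums, and Mthfd2 by S phase share in erythroid cells was 0.0023 with library sizes and 0.0017 at the median.

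Of 290 alternative levels, 276 stayed within 1 SD of the tagged samples. Leaving out 1 of 3 tagged samples cannot move their mean by 1 SD. Those levels, 40 for each tagged sample left out, were bound to be among the 276 and say nothing about stability. The other 14 were 6 with cells weighted equally, 6 with classes at a stricter threshold and 2 without trophoblast-bearing cells.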

Other observations

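Some further enzymes of the kynurenine pathway, looked up after the lists had been counted, were on the side of Qprt and not of Tdo2. Kmo, Kynu and Haao were higher in endoderm than in mesoderm by 4.95, 4.92 and 5.39 on the log2 scale, and higher than in endothelium by 4.69, 3.21 and 4.61. Against erythroid cells the differences were 4.58, 3.94 and 3.93. Acmsd, of the same pathway, went the other way there (-5.18). Hal, which starts histidine breakdown, was higher in endoderm by 4.05 against mesoderm. Tdo2 RNA was thus highest in mesoderm, and that of Kmo, Kynu and Haao in endoderm.

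Within the serine, glycine and threonine list the remaining glycine cleavage genes Amt and Gcsh were higher in endoderm than in mesoderm by 3.20 and 2.13, on the side of Gldc. Dld, which other complexes share, differed by 0.48.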
